A study of Homo sapiens with 4 samples.

Results

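The 4 RNA libraries of the series all come from MDA-MB-231 cells, an established mesenchymal-type line of human breast cancer that lacks the hormone receptors and HER2 amplification, kept in L15 medium with 10% serum. They fall into a pair made from cell lysates and a pair made from transfected cells, and the lysate pair was compared here with the transfected pair. The lysate pair holds RNA recovered on magnetic beads coated with antibody to PABPC1, which coats the poly(A) tails of cytoplasmic mRNA (pulldown), and the input RNA of that assay (input). The transfected pair holds cells transfected to silence LINC00882, a long non-coding RNA (si_LINC00882, for which the labels name an siRNA and a Smart Silencer), and cells transfected with the negative control (si_NC). The libraries were taken by their labels, 2 of the 4 for each side, and the genes were the 11288 gene IDs that all 4 tables list, of 12119 in either table. LINC00882 is not among them, so its knockdown was not checked, and the IgG control that the protocol mentions was not analysed here.

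Each library stands for a group of its own, so a difference has no replicate check and no p-value, and describes these libraries only. The lysate pair differs from the transfected pair in the transfection, in the lysis and immunoprecipitation procedure and in the deposited table, which lists partly different genes. Culture state and library preparation therefore cannot be told apart, and in bulk RNA neither can fewer cells of a state and less RNA per cell. To ask for a difference that does not rest on the pulldown or on the silencer alone, a gap was taken between the pairs. It is the lower of the lysate levels minus the higher of the transfected levels where the lysates lie above, and the higher of the lysate levels minus the lower of the transfected levels where they lie below, both in log2(FPKM + 1). Where the pairs overlap the gap is 0, and a gap of 1 in size is a 2-fold difference of FPKM + 1, a scale on which low genes show less than their full change. FPKM is a fragment count per kilobase of transcript scaled to the size of the library, and the depth behind a value is unknown.

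A growing culture adjusts its mRNA to density, serum, nutrients and stress. Amino acid shortage acts through the transcription factor ATF4 on asparagine synthetase, amino acid carriers and the aminoacyl-tRNA synthetases, which load amino acids onto their tRNAs. Inflammatory cytokines of the IL-1 and CXCL families are driven by NF-kB and can feed back on themselves in breast cancer cells, and metallothioneins, small proteins that bind zinc and copper, are induced by those metals through the factor MTF1.

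Promoters of some genes of these groups are shown first, as the 250 bases before a RefSeq start site (GRCh38.p14, gene strand, lower case) with the searched motif in capitals. All of those shown hold a match. Other genes with larger gaps, such as the interleukin gene IL1B and the synthetase gene VARS, are not shown. CXCL1, CXCL2 and CXCL3, chemokine genes that were higher in both lysate libraries, are shown with an NF-kB-like motif (GGG, any 2 bases, then TTTCC), MT1X, a metallothionein gene that was also higher, with the metal-response core TGCNCNC, and ASNS and AARS, asparagine and alanyl-tRNA synthetase, which were lower, with the ATF4-type motif TGATGNAA. Both strands were searched. ASNS has 2 such windows, and the one shown was picked by its number of matches.
CXCL1 (chr4:73869143-73869392, plus strand): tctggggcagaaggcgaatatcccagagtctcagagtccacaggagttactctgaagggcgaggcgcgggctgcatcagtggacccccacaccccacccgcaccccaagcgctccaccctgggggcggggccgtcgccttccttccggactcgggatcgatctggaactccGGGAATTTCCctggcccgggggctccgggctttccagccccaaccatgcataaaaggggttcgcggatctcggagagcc
CXCL2 (chr4:74099196-74099445, minus strand): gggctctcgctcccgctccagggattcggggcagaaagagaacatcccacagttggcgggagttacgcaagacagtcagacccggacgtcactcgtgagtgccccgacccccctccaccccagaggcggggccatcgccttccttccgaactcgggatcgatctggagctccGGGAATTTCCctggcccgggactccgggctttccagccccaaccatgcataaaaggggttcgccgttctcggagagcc
CXCL3 (chr4:74038690-74038939, minus strand): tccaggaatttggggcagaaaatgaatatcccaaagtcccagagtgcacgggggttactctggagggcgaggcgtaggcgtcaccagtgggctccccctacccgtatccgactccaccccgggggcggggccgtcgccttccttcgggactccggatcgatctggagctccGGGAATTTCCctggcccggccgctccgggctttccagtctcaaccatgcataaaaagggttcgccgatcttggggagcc
MT1X (chr16:56682220-56682469, plus strand): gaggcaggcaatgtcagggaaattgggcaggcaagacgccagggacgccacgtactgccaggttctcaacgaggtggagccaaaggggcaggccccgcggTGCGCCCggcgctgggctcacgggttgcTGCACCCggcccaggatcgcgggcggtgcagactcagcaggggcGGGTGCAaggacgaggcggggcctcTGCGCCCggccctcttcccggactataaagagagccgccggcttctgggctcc
ASNS (chr7:97872409-97872658, minus strand): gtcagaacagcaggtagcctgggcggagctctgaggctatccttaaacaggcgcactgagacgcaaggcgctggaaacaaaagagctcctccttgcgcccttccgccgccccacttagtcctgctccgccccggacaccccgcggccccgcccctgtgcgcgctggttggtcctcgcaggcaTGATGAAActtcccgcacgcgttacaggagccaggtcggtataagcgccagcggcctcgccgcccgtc
AARS (chr16:70289507-70289756, minus strand): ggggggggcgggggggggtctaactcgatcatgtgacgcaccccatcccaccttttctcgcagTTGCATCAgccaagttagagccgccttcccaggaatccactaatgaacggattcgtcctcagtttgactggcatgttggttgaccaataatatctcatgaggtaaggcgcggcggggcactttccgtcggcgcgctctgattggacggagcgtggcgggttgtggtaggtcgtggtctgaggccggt

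The chemokine motif occurred in 1.73% of all 35116 promoter windows, once in each of the 3 chemokine windows, and in none of those of IL1A and IL1B. The metal-response core is short and occurred in 49.1% of all windows, with 4 matches in MT1X. The ATF4-type motif occurred in 3.14% of all windows, in 4 of the 18 amino acid and ATF4 response genes with a window and in 2 of the 12 aminoacyl-tRNA synthetase genes with one. A gene was counted if any of its windows matched, so counts of genes and percents of windows are not directly comparable. These matches describe letters in a window and are not evidence of binding.

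All 10 genes fixed as MDA-MB-231 markers were listed, among them the mesenchymal filament gene VIM, at 367 and 155 FPKM in input and pulldown against 260.4 and 267 in si_NC and si_LINC00882. Their summed level was 1550 and 2193 FPKM in input and pulldown, and 2316 and 2399 in si_NC and si_LINC00882. Of 11 luminal breast markers 6 were listed, with a summed level of 147 and 171 FPKM in input and pulldown against 154 and 147 in si_NC and si_LINC00882. The pairs overlapped for 4 of them, KRT19, a keratin, had a gap of 0.02, and EPCAM, an epithelial adhesion protein, stood at 6.79 and 10.5 FPKM in the lysates against 3.26 and 2.24 in the transfected cells (gap 0.87). The fibroblast markers COL1A1 and PDGFRB stayed at or below 1.61 FPKM in all 4 libraries. The basal, leukocyte and endothelial markers are not among the 11288 genes and were not analysed here. PABPC1 mRNA itself was at 412 and 255 FPKM in input and pulldown, against 173 and 158 in si_NC and si_LINC00882, a gap of 0.55.

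The lysate libraries were not a close pair. Across the 10902 genes with at least 1 FPKM in some library, which are not independent replicates, Pearson's r of the log2 levels was 0.898 between input and pulldown, and 0.919 and 0.923 between the pulldown and si_NC and si_LINC00882. Between input and the transfected libraries it was 0.863 and 0.865, and within the transfected pair 0.976. The mRNAs that mitochondria encode made up 47.3% of all FPKM of the shared genes in input and 3.08% in the pulldown, against 16.3% in si_NC and 19.3% in si_LINC00882. The median level was 4.63 FPKM in input and 7.36 in the pulldown, against 6.44 and 6.38 in si_NC and si_LINC00882, so that a typical nuclear-encoded gene stood lowest in input.

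Of the 10902 genes, 127 (1.16%) had a gap of at least 1 and were higher in both lysate libraries, and 90 (0.826%) were lower by as much. The pairs overlapped at 5437 genes, while 2696 (24.7%) had both lysate libraries above both transfected libraries and 2769 (25.4%) had both below. The median difference of the pair means over all genes was -0.05. For single lysate libraries the median was -0.27 for input and 0.16 for the pulldown, each minus si_NC. List medians for single libraries below are to be read against these. The balance of calls depended on the scaling. With FPKM rescaled to a common sum without mitochondrially encoded genes 103 were higher and 141 lower, and after quantile normalization 149 and 158. The counts also rested on all 4 libraries. They were 417 higher and 1678 lower without the pulldown, 465 and 153 without input, 251 and 160 without si_LINC00882, and 234 and 137 without si_NC.

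**Figure D1:**
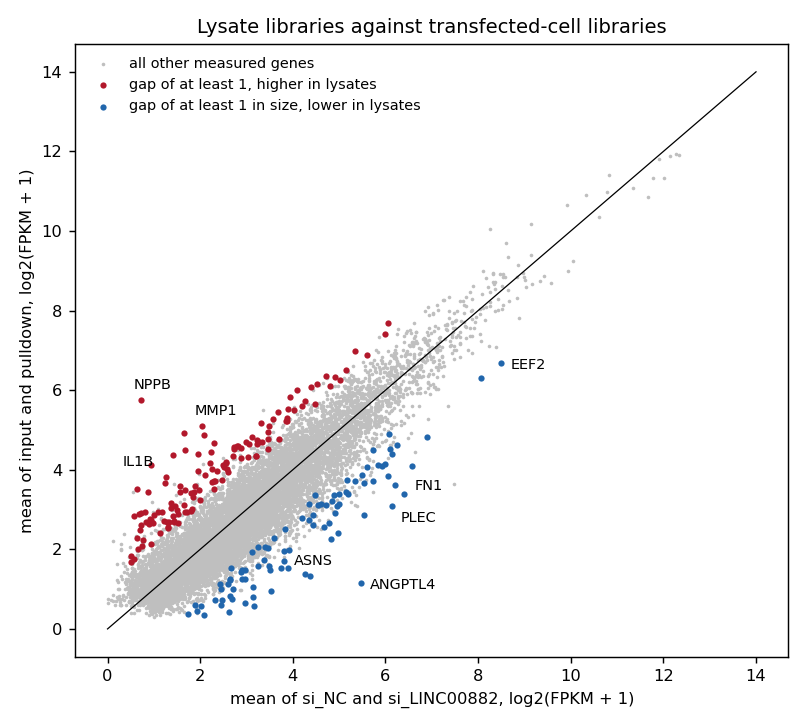
Mean level of each of the 10902 measured genes in the lysate libraries (y axis) and the transfected-cell libraries (x axis), in log2(FPKM + 1). The 127 red genes were higher and the 90 blue genes lower in both lysate libraries by a gap of at least 1 in size, and the black line marks equal means.

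Input was the limiting lysate library for most genes on the high side and the pulldown for most on the low side. Of the 127 higher genes 81 stood above input in the pulldown, and of the 90 lower genes 85 did, as did 8301 of all 10902 genes. The median level of the higher genes was 12.6 and 16.9 FPKM in input and pulldown, against 3.01 and 3.03 in si_NC and si_LINC00882. That of the lower genes was 2.65 and 5.65 FPKM, against 19.3 and 18.0. The genes nearest the size rule were LAPTM5 (1.00) and FKBP7 (1.00) just past it and HIST1H2BO (0.999) and COQ10B (0.999) just short of it on the high side, and HSPH1 (-1.01) past it and EFTUD2 (-0.995) short of it on the low side.

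The largest gap of the named genes belonged to NPPB, which encodes the B-type natriuretic peptide. NPPB stood at 44.4 and 62.4 FPKM in input and pulldown, against 0.241 and 1.2 in si_NC and si_LINC00882 (gap 4.39). It was low in both transfected libraries and at least 44.4 FPKM in both lysate libraries. MMP1, the interstitial collagenase, stood at 30.6 and 35.8 FPKM in the lysates against 3.51 and 2.75 in the transfected cells (gap 2.81). MDK, the heparin-binding growth factor midkine, stood at 15.6 and 24.8 against 2.05 and 1.32 (gap 2.44). Its close relative PTN, pleiotrophin, was at 5.43 and 5.82 against 0.913 and 0.895 (gap 1.75). Both were named for the size of their gap, so their shared direction adds no support. PTN, like ECSCR below, reached 1 FPKM only in the lysate libraries. RAB31, a small GTPase of vesicle traffic, stood at 19.6 and 23.7 FPKM against 1.69 and 2.82 (gap 2.43), and ECSCR, a surface protein known from endothelial cells, at 5.22 and 7.66 against 0.435 and 0.778 (gap 1.81). TMEM14A, a small membrane protein, was at 62.0 and 49.8 against 13.8 and 14.9 (gap 1.67). In each of these genes the libraries of a pair lay closer to each other than to the other pair.

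**Figure D2:**
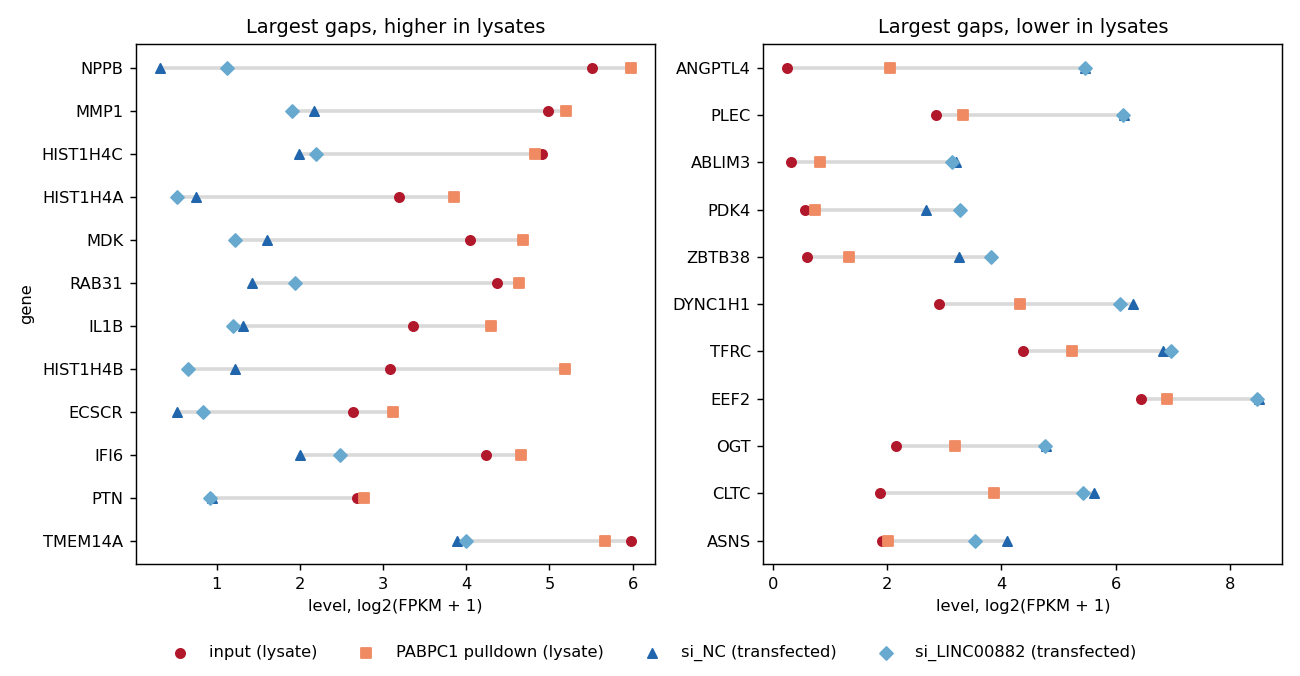
Level in log2(FPKM + 1) in each of the 4 libraries for 12 genes with the largest gaps on the high side and 11 on the low side, among genes of at least 5 FPKM in the higher pair that share no span with another listed gene. Red and orange symbols are input and pulldown, dark and light blue symbols si_NC and si_LINC00882, and no gene has overlapping pairs.

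Several cytokine genes were higher in the lysates. Of the 21 measured NF-kB targets and cytokines, 5 had a gap of at least 1 and none of -1 or lower (background 1.16% and 0.826%), and 9 had non-overlapping pairs with the lysates above, 1 below. IL1B, the main secreted interleukin-1, stood at 9.23 and 18.7 FPKM in input and pulldown, against 1.48 and 1.28 in si_NC and si_LINC00882 (gap 2.04). IL1A stood at 11.1 and 35.6 against 2.77 and 2.93 (gap 1.62), with the pulldown the highest of the 4 libraries for both interleukins. The neutrophil-attracting chemokine CXCL1 stood at 70.7 and 93.7 FPKM in the lysates against 25.6 and 25.2 in the transfected cells (gap 1.43). CXCL2 was at 20.0 and 18.4 against 8.28 and 8.07 (gap 1.06) and CXCL3 at 6.25 and 7.12 against 2.43 and 1.99 (gap 1.08). These are the 3 neighbouring genes of chromosome 4 whose promoters carry the same GGGAATTTCC run above, and as close paralogs they may share fragments. The list's median difference was 0.31 (0.11 for input and 0.95 for the pulldown, each minus si_NC), and NFKB1, a subunit of the factor itself, stood at 5.70 and 9.14 FPKM against 9.69 and 9.66.

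Metallothioneins were higher as well. Of the 11 genes written for the metallothionein and zinc response list 7 were measured. Of these 7 genes 3 had a gap of at least 1 and 6 had both lysates above, against 1.16% and 24.7% of all genes. The median difference was 0.99. MT1F, 1 of the 3, reached 1 FPKM only in the lysate libraries, so these counts are partly set by the minimum level. MT1X stood at 47.6 and 47.7 FPKM in input and pulldown, against 18.0 and 16.9 in si_NC and si_LINC00882 (gap 1.36), the lysate libraries being almost equal. MT1F was at 4.45 and 4.69 against 0.695 and 0.579 (gap 1.69) and MT1A at 4.66 and 5.82 against 1.24 and 0.541 (gap 1.33). The abundant members differed less, MT1E at 245 and 121 against 86.7 and 85.4 (gap 0.47) and MT2A at 594 and 341 against 302 and 276 (gap 0.18), with input far above the pulldown in both. The zinc exporter SLC30A1, another target of MTF1, stood at 10.1 and 6.65 against 6.02 and 6.62 FPKM, and MTF1 itself at 3.36 and 5.39 against 3.78 and 4.96, where the pairs overlapped. Metallothionein mRNAs are near-identical paralogs, so the division of fragments among them is uncertain.

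**Figure D3:**
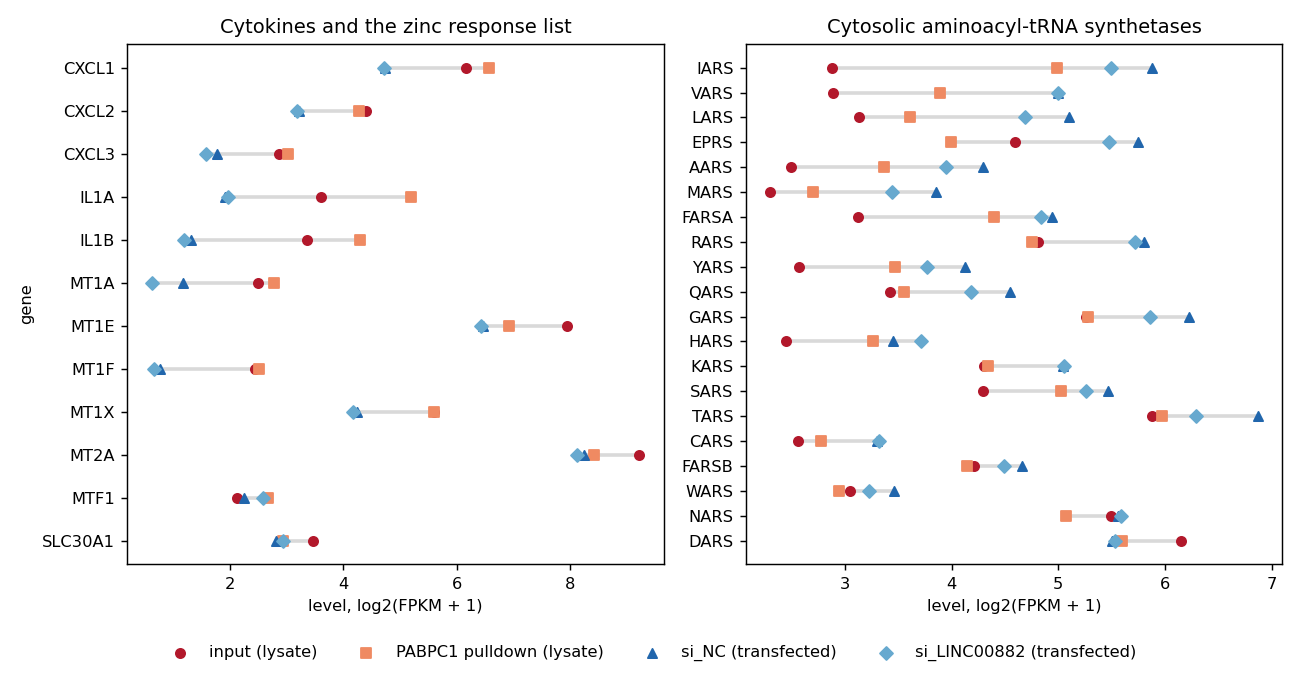
Level in log2(FPKM + 1) in each library for 5 cytokine genes and the 7 measured genes of the zinc response list (left), and for 20 cytosolic aminoacyl-tRNA synthetases (right). On the left the lysate symbols (red, orange) lie to the right in all genes but MTF1, and on the right they lie to the left in 19 of 20 genes, DARS being the exception.

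Some interferon-stimulated genes stood higher in the lysates. Of 36 measured members 4 had a gap of at least 1 and none of -1 or lower, 17 had both lysates above and 4 both below (24.7% and 25.4% of all genes), and the median difference was 0.20 (-0.04 for input and 0.29 for the pulldown, each minus si_NC). IFI6, an interferon-induced mitochondrial protein, stood at 17.8 and 24.3 FPKM in input and pulldown, against 3.01 and 4.57 in si_NC and si_LINC00882 (gap 1.75). The membrane proteins IFITM2 (31.3 and 39.5 against 7.59 and 10.5, gap 1.49) and IFITM3 (162 and 179 against 53.3 and 73.9, gap 1.12), which block virus entry and are close paralogs, were also past 2-fold, as was UBE2L6, the conjugating enzyme for ISG15 (18.5 and 20.4 against 8.14 and 8.26, gap 1.08). In class I antigen presentation, B2M, the common light chain, stood at 54.0 and 73.6 against 23.2 and 10.9 (gap 1.19). The heavy chain HLA-B (102 and 114 against 144 and 139) was below in both lysates, and of the 15 genes of that list 2 had both lysates above and 8 both below.

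MYC, the transcription factor of growth, stood at 9.95 and 21.1 FPKM in input and pulldown, against 2.79 and 2.91 in si_NC and si_LINC00882 (gap 1.49). Other immediate-early genes lay on either side. JUND, of the AP-1 factors, was at 68.7 and 66.6 against 25.6 and 33.1 (gap 0.99), while DUSP1, a phosphatase that ends MAP kinase signals, was at 6.83 and 8.81 against 23.1 and 24.0 (gap -1.30). JUN was at 33.7 and 29.6 against 61.5 and 61.5 (gap -0.85) and CTGF, also a target of YAP, at 67.3 and 65.9 against 138 and 128 (gap -0.91). Of 23 measured genes of this list 1 was past 2-fold in each direction, and 6 had both lysates above and 8 both below, shares near the 24.7% and 25.4% of all genes. Further genes past 2-fold on the high side were the proteoglycan SDC1 (23.1 and 25.4 against 7.21 and 7.51, gap 1.5), the TGF-beta receptor TGFBR1 (15.5 and 16 against 4.07 and 5.47, gap 1.35) and G0S2, an inhibitor of lipolysis (170.1 and 249.6 against 83.7 and 51.6, gap 1.01).

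Replication-dependent histone mRNAs, most of which are not polyadenylated, made up 31 of the 10902 measured genes. They held 3 of the 12 named genes with the largest gaps on the high side, all of histone H4. These 3 were picked by that gap, so their number adds no support. All 31 listed genes reached 1 FPKM in some library, but 12 of them only in a lysate library, 7 of these in the pulldown alone, so that counts over the list are partly set by this minimum. Of the 19 that reached it in a transfected library 13 had both lysates above, none below, and 5 had a gap of at least 1, against 24.7%, 25.4% and 1.16% of all genes. HIST1H4C stood at 29.0 and 27.4 FPKM in input and pulldown, against 2.96 and 3.58 in si_NC and si_LINC00882 (gap 2.63). HIST1H4A was at 8.15 and 13.5 against 0.677 and 0.430 (gap 2.45) and HIST1H4B at 7.45 and 35.3 against 1.32 and 0.567 (gap 1.86). HIST1H4A is among the 12 histone genes that reached 1 FPKM only in a lysate library. HIST1H4C was level between the lysate libraries, while the pulldown stood well above input for HIST1H4B and for HIST1H3B (4.01 and 22.5 against 1.11 and 0.582). The list's median was 0.55 for input minus si_NC and 3.08 for pulldown minus si_NC. Both medians run over all 31 genes, the 12 included, so they too are partly set by the minimum. The list spans several histone classes, and some of its genes are close copies of others, so the division of fragments among those is uncertain.

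Nuclear genes of mitochondrial respiration leaned the same way. Of 75 nuclear-encoded oxidative phosphorylation subunits 40 had both lysates above and 12 both below (24.7% and 25.4% over all genes), with a median difference of 0.34. The list's median was 0.48 for input and 0.26 for the pulldown, each minus si_NC, against -0.27 and 0.16 over all genes. Only COX7C, a small subunit of cytochrome oxidase, passed 2-fold (128 and 106 against 44.2 and 51.5, gap 1.03), and NDUFA10, a complex I subunit, lay the other way (1.33 and 4.32 against 8.18 and 8.57, gap -0.79). TMSB4X, which encodes the small actin-binding peptide thymosin beta 4, was at 1520.2 and 729 against 394 and 237 FPKM (gap 0.89). Cytosolic ribosomal proteins were mixed, with medians of 0.51 for input and -0.20 for the pulldown, each minus si_NC. Of 84 genes 15 had both lysates above and 10 both below, counts that became 11 and 13 with the rescaling without mitochondrial genes and 10 and 19 after quantile normalization. The mitochondrially encoded mRNAs themselves had overlapping pairs in all 13 cases, because input was the highest and the pulldown the lowest library, as for MT-ATP6 at 21171 and 121 FPKM against 876 and 1074.

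Of the 25 cholesterol synthesis and uptake genes 10 had both lysates above and 1 both below (24.7% and 25.4% of all genes), with a median difference of 0.46 and none past 2-fold. The list's median was -0.10 for input and 0.80 for the pulldown, each minus si_NC. All measured genes had medians of -0.27 and 0.16, so the list lay above them in both, by more in the pulldown. EBP, a sterol isomerase, stood at 25.5 and 26.1 against 12.3 and 12.3 FPKM (gap 0.995), and FDFT1, which makes squalene, at 11.2 and 11.5 against 5.41 and 4.81 (gap 0.93). Among fatty acid genes the desaturases SCD (52.4 and 117 against 26.8 and 25, gap 0.95) and FADS1 (24.1 and 36.7 against 11.6 and 10.2, gap 0.99, overlapping another gene) were above in both lysates. FASN, the synthase itself, was below (8.26 and 21.0 against 28.3 and 24.7, gap -0.22).

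On the low side the largest gap belonged to ANGPTL4, a secreted inhibitor of lipoprotein lipase. ANGPTL4 stood at 0.183 and 3.12 FPKM in input and pulldown, against 42.9 and 43.4 in si_NC and si_LINC00882 (gap -3.41). PDK4, the kinase that turns off pyruvate dehydrogenase, was at 0.480 and 0.658 against 5.38 and 8.67 (gap -1.94), PLIN2, the coat protein of lipid droplets, at 12 and 21.3 against 57.5 and 61.6 (gap -1.39), and CPT1A, which brings fatty acids into mitochondria, at 11.9 and 15.8 against 41.0 and 47.0 (gap -1.32). All 4 are classical targets of the fatty acid receptors of the PPAR family. A list of PPAR targets and lipid droplet genes, chosen after these values were seen, held 28 measured genes. Of these, 4 were past 2-fold lower and 1 higher (0.826% and 1.16% of all genes). The 4 are the genes just named, known when the list was chosen, so their count adds no support. The 1 higher was G0S2, at 170 and 250 FPKM in the lysates against 83.7 and 51.6 in the transfected cells (gap 1.01). In both lysates 14 genes lay below and 5 above (25.4% and 24.7% of all genes). ANGPTL4 also belongs to the hypoxia list, where it was the only one of 23 genes past 2-fold. The carbonic anhydrase CA9 of that list stood at 6.09 and 16.6 against 35.5 and 32.0 (gap -0.91), 9 genes had both lysates below and 3 both above.

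Several genes of amino acid supply were lower in the lysates. ASNS stood at 2.75 and 3.02 FPKM in input and pulldown, against 16.2 and 10.6 in si_NC and si_LINC00882 (gap -1.53), both lysates lying low. SLC3A2, the heavy chain of amino acid exchangers, was at 7.25 and 12.7 against 22.1 and 24.4 (gap -0.76) and the glutamine carrier SLC1A5 at 28.6 and 41.1 against 58.0 and 55.0 (gap -0.41). Of the 23 genes of the amino acid and ATF4 response 12 had both lysates below and 2 both above (25.4% and 24.7% of all genes), with a median difference of -0.54 (-0.92 for input and -0.27 for the pulldown, each minus si_NC). DDIT3, which encodes the stress factor CHOP, was above, at 9.24 and 16.9 against 6.38 and 5.94 (gap 0.47).

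The aminoacyl-tRNA synthetases had the largest share of members below among all lists compared. Of 20 genes 19 had both lysates below both transfected libraries, against 25.4% of all genes, and 2 were past 2-fold, with a median difference of -0.83. VARS, for valine, stood at 6.40 and 13.8 FPKM in input and pulldown, against 30.9 and 31.0 in si_NC and si_LINC00882 (gap -1.10). LARS, for leucine, was at 7.77 and 11.2 against 33.3 and 24.8 (gap -1.08) and RARS, for arginine, at 27.0 and 25.9 against 54.7 and 51.7 (gap -0.91). EPRS, for glutamate and proline, stood at 23.2 and 14.9 against 52.6 and 43.6 (gap -0.88), the pulldown being lower than input there, while in IARS (6.38 and 30.8 against 57.7 and 43.9) input was far the lowest. DARS, for aspartate, was the only one above, at 70.2 and 47.4 against 44.4 and 45.3 (gap 0.06). The list's median was -1.07 for input minus si_NC and -0.79 for pulldown minus si_NC, where all measured genes had medians of -0.27 and 0.16. With each library centred on its median 16 of the 20 genes were below and none above.

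**Figure D4:**
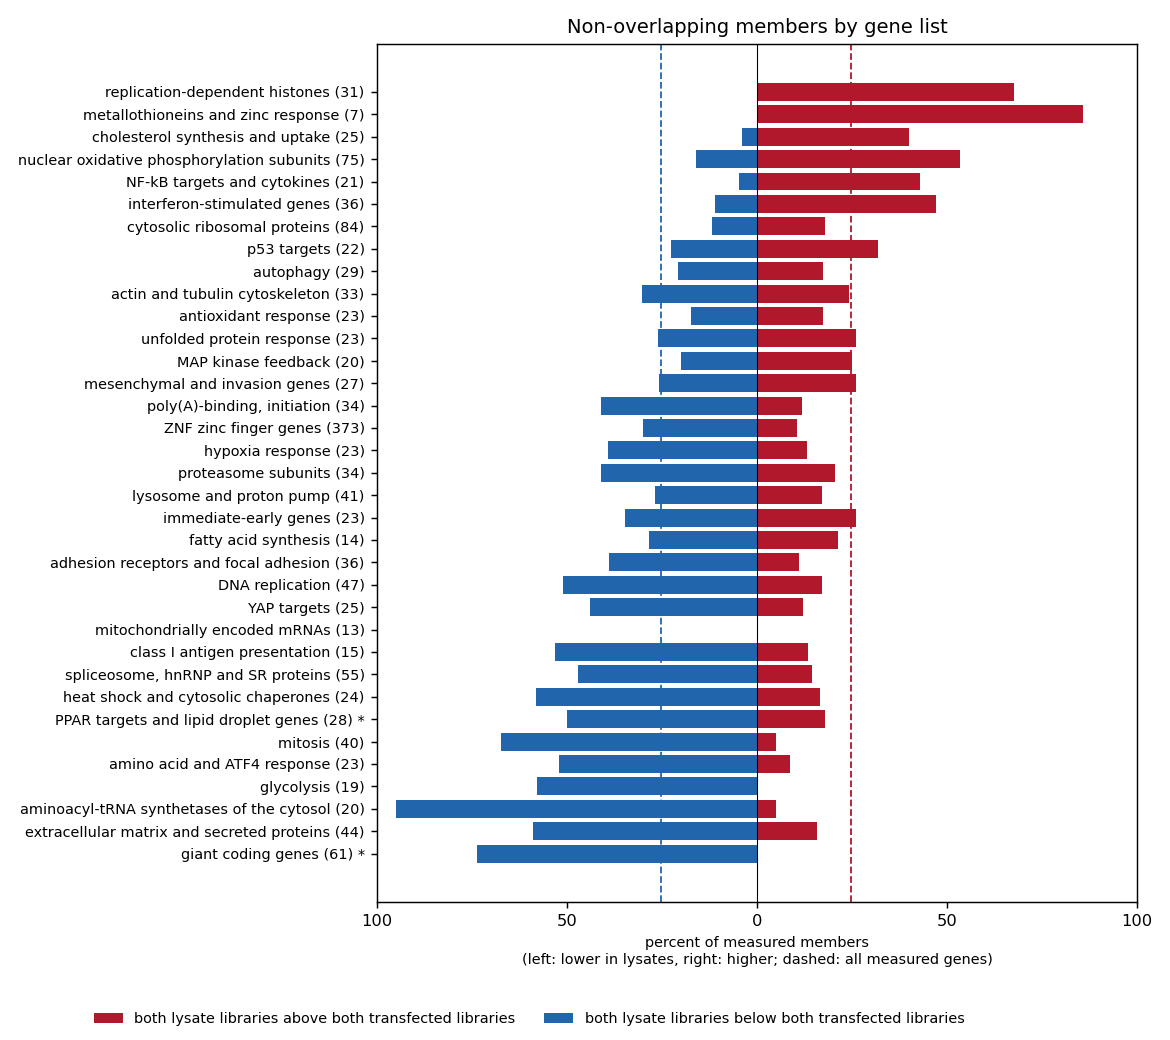
Percent of the measured members of each gene list (number in brackets) with both lysate libraries above (red, right) or below (blue, left) both transfected libraries. Dashed lines mark 24.7% and 25.4% over all measured genes, and lists run from the highest to the lowest median difference. An asterisk marks the 2 lists added after the values of this comparison were seen. The other lists too were chosen with earlier results of these data known.

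Many genes with very large coding regions were lower in the lysates. PLEC, which encodes the cytoskeletal linker plectin, stood at 6.24 and 9.04 FPKM in input and pulldown, against 69.8 and 69.4 in si_NC and si_LINC00882 (gap -2.81). The dynein heavy chain DYNC1H1 at 6.51 and 19.1 against 78.5 and 66.9 (gap -1.76) and the clathrin heavy chain CLTC at 2.67 and 13.6 against 48.3 and 42.1 (gap -1.57). In all 3 input was the lowest library, and the pulldown lay between it and the transfected cells. A list of 61 such genes was chosen after these values were seen and includes the 3 genes just named. It had 11 past 2-fold lower (0.826% of all genes), these 3 among them. It had 45 with both lysates below and none above (25.4% and 24.7% of all genes), and a median difference of -1.04. Its median was -1.68 for input minus si_NC and -0.61 for pulldown minus si_NC.

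Transcript lengths were not analysed here, but the span of a gene on the genome, introns included, was at hand in RefSeq for 10779 measured genes. In 4 nearly equal groups by span, genes of 0.276 to 12.7 kb had 2.23% past 2-fold higher and 0.668% past 2-fold lower, with a median difference of 0.09. Genes of 71.4 to 1553 kb had 0.482% higher and 0.928% lower, with a median of -0.14. From the shortest to the longest group the median of input minus si_NC was -0.05, -0.26, -0.33 and -0.42, and that of pulldown minus si_NC 0.27, 0.19, 0.10 and 0.10. Both lysate libraries had their highest medians in the group with the shortest genes. The part of gene span, and of the mitochondrial share, in the differences of single genes and lists was not tested.

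**Figure D5:**
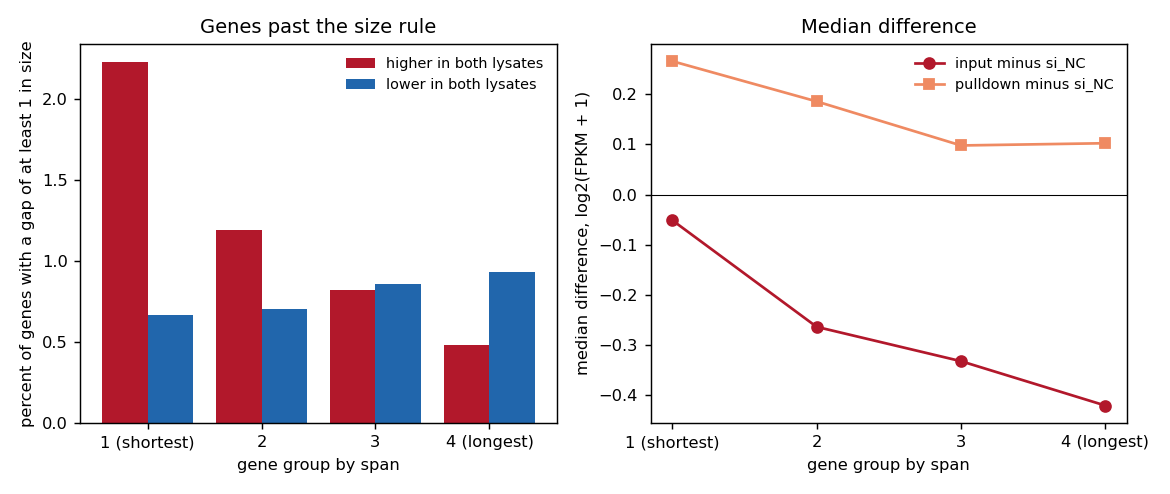
Genes in 4 groups of nearly equal size by RefSeq span, shortest to longest. Left, percent with a gap of at least 1 higher (red) or lower (blue) in both lysates, 2.23% and 0.668% in the shortest group and 0.482% and 0.928% in the longest. Right, median difference in log2(FPKM + 1) of input (red) and pulldown (orange) from si_NC.

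Most matrix genes, several of which are also large, were on the low side. Of 44 extracellular matrix and secreted protein genes 7 were past 2-fold lower and none higher, 26 had both lysates below and 7 both above (25.4% and 24.7% of all genes), and the median difference was -0.92. Fibronectin, FN1, whose span overlaps another listed gene, stood at 6.09 and 14.5 FPKM in input and pulldown, against 85.7 and 81.4 in si_NC and si_LINC00882 (gap -2.41). The basement membrane collagens COL4A2 (7.77 and 22.5 against 65.3 and 64.7, gap -1.49) and COL4A1 (7.94 and 11.4 against 29.8 and 41.9, gap -1.31), which assemble into one protein, had similar gaps, and the collagen cross-linking enzyme LOXL2 was at 8.28 and 16.5 against 46.3 and 44.6 (gap -1.38). Among 36 adhesion genes 14 were below, 4 above and 18 overlapping, with the actin cross-linker ACTN1 at 18.5 and 30.3 against 71.4 and 78.7 (gap -1.21) and the integrin ITGA3 at 8.82 and 47.7 against 113 and 85.8 (gap -0.83). The list median for matrix genes was -1.50 for input and -0.25 for pulldown, each minus si_NC, so input carried most of the difference. The myosin heavy chain MYH9 (66.8 and 91.8 against 246 and 286, gap -1.41) and lamin LMNA (10.9 and 14.3 against 31.9 and 38.0, gap -1.10) were lower in both lysates too.

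Most mitotic genes were lower in the lysates. Of 40 measured genes 27 had both lysates below, 2 both above and 3 were past 2-fold lower, against 25.4%, 24.7% and 0.826% of all genes, and the median difference was -0.52 (-0.65 for input and -0.49 for the pulldown, each minus si_NC). HMMR, a spindle protein, stood at 2.43 and 1.28 FPKM against 6.38 and 6.56 (gap -1.10), the kinesin KIF23 at 4.32 and 12.6 against 31.8 and 27.8 (gap -1.08) and the proliferation antigen MKI67 at 19.9 and 28.5 against 54.6 and 58.2 (gap -0.91). Of 47 DNA replication genes 24 were below and 8 above. LIG1, the replicative DNA ligase, stood at 2.48 and 5.19 against 9.37 and 9.47 (gap -0.74), while GINS4, of the replicative helicase, lay past 2-fold the other way at 8.25 and 5.85 against 1.57 and 2.08 (gap 1.15). UHRF1, which keeps DNA methylation through replication, was at 1.76 and 25.6 against 41.3 and 40.0 FPKM, where input alone was very low.

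Glycolysis, chaperone and RNA processing genes leaned the same way without many large gaps. Of 19 glycolysis genes 11 had both lysates below and none above (25.4% and 24.7% of all genes), with hexokinase HK1 at 20.9 and 27.8 FPKM against 51.2 and 52.6 (gap -0.86), enolase ENO1 at 182 and 278 against 464 and 478 (gap -0.73) and pyruvate kinase PKM at 21.8 and 64.8 against 125 and 115 (gap -0.81). The list's median was -0.97 for input and -0.35 for the pulldown, each minus si_NC. Of 24 heat shock and chaperone genes 14 were below and 4 above. HSPH1, a large cytosolic chaperone, was past 2-fold (3.52 and 8.79 against 19.9 and 18.7, gap -1.01), while the small HSPB1 lay above (207 and 164 against 69.7 and 83.2, gap 0.97). Of 55 spliceosome, hnRNP and SR protein genes 26 were below and 8 above, with HNRNPU at 12.7 and 14.4 against 34.5 and 29.2 (gap -0.97). Among translation genes the elongation factor EEF2 was past 2-fold, at 86.0 and 119 against 364 and 357 (gap -1.58), whereas PAIP2, which binds PABPC1, lay above at 55.1 and 31.3 against 13.2 and 19.5 (gap 0.66).

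Further single genes with large gaps on the low side were TFRC, the transferrin receptor whose mRNA is stabilised when iron is short (19.9 and 36.7 FPKM in input and pulldown against 113 and 124 in si_NC and si_LINC00882, gap -1.60), and OGT, which adds O-GlcNAc sugars to proteins (3.43 and 8.09 against 26.6 and 26, gap -1.57). ABLIM3, an actin-binding protein, stood at 0.242 and 0.771 against 8.20 and 7.73 (gap -2.30) and ZBTB38, which binds methylated DNA, at 0.507 and 1.51 against 8.54 and 13.0 (gap -1.93). Among the 373 ZNF genes, 112 had both lysates below, a share near the 25.4% of all genes, and 39 both above (24.7% of all genes), with ZNF514 (1.09 and 1.59 against 4.98 and 5.46, gap -1.21) and ZNF331 (0.197 and 1.31 against 5.12 and 3.99, gap -1.11) past 2-fold lower and ZNF580, which overlaps another gene, past 2-fold higher (14 and 11 against 4.36 and 4.71, gap 1.07).

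Several gene groups had shares above and below near those of all genes. The medians of the endoplasmic reticulum unfolded protein response (-0.08), antioxidant response (-0.07), MAP kinase feedback (-0.09), autophagy (-0.04) and cytoskeleton lists (-0.07) lay within 0.05 of the -0.05 of all measured genes. The cytoskeleton list still had 4 of 33 genes past 2-fold lower and none higher (0.826% and 1.16% of all genes). These were PLEC, MYH9, LMNA and TPM2. In the unfolded protein list the chaperone CANX was below (119 and 108 against 197 and 194, gap -0.71) and XBP1 above (23.0 and 15.5 against 11.3 and 12, gap 0.34). Among the 29 autophagy genes the only one past 2-fold was WIPI1, which overlaps another gene (9.86 and 14.9 against 4.40 and 3.46, gap 1.01), and GABARAPL2 lay just short of it (25.9 and 25.3 against 11.6 and 12.3, gap 0.98). Of 22 p53 targets 7 were above and 5 below, of 27 mesenchymal and invasion genes 7 and 7, and of 41 lysosome genes 7 and 11, against 24.7% and 25.4% of all genes. On the low side were 14 of 34 proteasome genes, with 7 above, and 11 of 25 YAP targets, with 3 above and a median difference of -0.32.

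Of the 127 higher genes 17, and of the 90 lower genes 13, lie across a neighbouring gene of the tables, and reads of such neighbours may have been split between them. These are 13.4% and 14.4%, against 18.7% of all measured genes. The largest gaps among them were, on the high side, ARG2, the mitochondrial arginase (5.44 and 5.38 FPKM in the lysates against 0.960 and 0.637 in the transfected cells, gap 1.70), MED31, of the Mediator complex (15.9 and 14.8 against 3.33 and 4.26, gap 1.59), and F8A1 (49.9 and 37.1 against 11.8 and 11.7, gap 1.57), which also has near-identical copies. On the low side, besides FN1, they were the readthrough gene RPL36A-HNRNPH2 (1.24 and 1.85 against 22.8 and 17.2, gap -2.68), PGAM4, an intronless copy of PGAM1 (1.02 and 2.37 against 25 and 13.4, gap -2.09), and LENG8 (2.39 and 5.81 against 21.3 and 35.4, gap -1.71).

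Input and si_NC, which had neither the pulldown nor the knockdown, differed by 2-fold or more at 2640 genes, 625 higher (5.73%) and 2015 lower (18.5%) in input. That split turned with the scaling, to 1526 and 1016 with each library centred on its median and to 1065 and 1129 after quantile normalization. The 2640 genes include all 217 genes with a gap of at least 1 in size, which the definition of the gap requires. The other genes had no 2-fold gap between the pairs. The pulldown stood 2-fold or more above si_NC at 774 genes (7.10%) and below it at 268 (2.46%).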

How the data were processed

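The deposited tables hold a single FPKM for each gene in each library, per the file headers. Tools in the submitters' processing notes, listed with no role or order, are StringTie 1.3.3, HISAT2 2.1.0, FastQC 0.11.7 and cutadapt, and the build is GRCh37. Annotation, filters, RNA selection and depth are not given in these sources, and FPKM allow no counting interval.

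Values were used as deposited, as log2(FPKM + 1), for genes listed in all 4 tables with at least 1 FPKM in at least 1 library. Each group being 1 library, size alone was used, without p-values. The members, gene lists and tests were chosen with earlier results of these data known. Named genes are the 12 largest gaps in each direction (at least 5 FPKM in both libraries of the higher pair, protein-coding, with 1 symbol, no overlap and no readthrough), the 5 largest among overlapping genes, up to 5 members of each of 33 lists and 2 added lists by size of gap, PABPC1 and the cell type markers. MT1F, NFKB1, MTF1, AARS, IARS, DARS, LAPTM5, FKBP7, HIST1H2BO, COQ10B and EFTUD2 were named after their values were seen. Some named genes are left unreported. For overlaps, spans and promoters 11147 of the 11288 genes were matched to RefSeq GRCh38.p14, which is not the build of the values. Alternatives were other pseudocounts, minimum levels, scalings and size rules, protein-coding or non-overlapping genes only, single libraries for a pair, and pair means. The steps were tested on simulated data. Values were computed with pandas 2.3.3 and numpy 2.4.6 under Python 3.11.15, and figures drawn with matplotlib 3.10.9.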

Additional observations from a re-analysis of the deposited data

How the results depend on the processing

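No paired analysis was possible because each group is 1 library and the labels give no replicate numbers. Counts of genes past the size rule were 127 higher and 90 lower in the lysates. They became 241 and 163 with a pseudocount of 0.1, 35 and 32 with a pseudocount of 5, 559 and 454 at 1.5-fold, 18 and 12 at 3-fold, and 434 and 675 with the difference of pair means in place of the gap. With 1 library for a pair they were 417 and 1678 (input), 465 and 153 (pulldown), 251 and 160 (si_NC), and 234 and 137 (si_LINC00882). Lower genes were 141 after rescaling without mitochondrially encoded genes and 158 after quantile normalization. The median of all genes, -0.05 as reported, was 0.06 with centring, -0.12 with that rescaling and 0.01 with quantile normalization. Between input and si_NC the 2640 genes became 964 with a pseudocount of 5, 5285 at 1.5-fold and 888 at 3-fold. The other settings kept each count within 1.5 times of its value. No named gene past 2-fold changed direction, but by the definition of the gap only the changes of scaling could have reversed one. Some fell short of 2-fold in part of the alternatives. ZNF580 stayed past it in 9 of 13 and COX7C in 10 of 14. Of the list medians of at least 0.5 in size, taken relative to all genes, none changed sign. What 1 fragment is worth is unknown, so differences between values below 1 FPKM cannot be weighed.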

Other observations

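Genes listed for only 1 of the pairs were left out of every comparison. The lysate tables list 424 genes that the transfected tables used here do not, and 14 of them reached 5 FPKM in a lysate library. Of those 14, 7 are replication-dependent histone genes, all below 1 FPKM in input and higher in the pulldown, such as HIST1H2AB (0.423 FPKM in input, 8.42 in the pulldown) and HIST2H3D (0.421 and 7.45). The cancer-testis genes SPANXA1 (9.10 and 3.58) and SPANXA2 (7.49 and 3.18), which are close paralogs, stood higher in input. MLLT11 (7.24 and 6.71) and DBNDD1 (5.52 and 5.34) were level between the lysate libraries. The transfected tables list 407 genes that the lysate tables used here do not, and 2 of them, both with clone names, reached 5 FPKM. The levels of these genes in the other pair were not analysed here.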
